A study of Mus musculus with 6 samples.

Results

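The genes described here are the 46 of 22298 genes in the deposited table whose symbol begins with Psma, Psmb, Psmc, Psmd, Psme or Psmf and a digit, the naming scheme of the proteasome. They were measured in whole hearts of 18-month-old female wild-type mice (labelled WT) by RNA sequencing of polyadenylated RNA. The hearts of 3 libraries were taken after sham surgery and those of the other 3 after TAC, transverse aortic constriction, which narrows the aorta and loads the left ventricle with pressure. All 6 libraries share age, sex, genotype and tissue, and how long after surgery they were taken is not stated in the labels. The titles number 3 hearts in each group, and p-values measure the spread between these hearts. The series title names GPR30, Trex1 and heart failure of aged females, and the comparison available in the table is TAC against sham.

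The proteasome is the barrel-shaped protease that degrades proteins tagged with ubiquitin. Its 20S core is built of rings of alpha and beta subunits, of which Psmb5, Psmb6 and Psmb7 carry the catalytic sites, and the 19S cap recognises, unfolds and feeds in the substrate. Under interferon gamma, and constitutively in many leukocytes, Psmb8, Psmb9 and Psmb10 are built in at the positions of Psmb5, Psmb6 and Psmb7, which gives the immunoproteasome, a source of peptides for MHC class I. In the heart muscle cell the proteasome removes damaged and surplus sarcomere protein.

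By role, the 46 genes comprised 7 alpha subunits, 4 non-catalytic beta subunits, 3 catalytic beta subunits, 3 immunosubunits, 6 ATPases and 11 non-ATPase subunits of the 19S cap, 3 chaperones of 19S assembly, 4 activator genes, 1 inhibitor and 4 others. The first 2 beta groups, the alpha subunits and the 17 subunits of the 19S cap are called the 31 standard subunits below. Of the 4 others, Psma8 encodes a testis alpha subunit, Psmb11 encodes the thymus catalytic subunit, Psme2b is a copy of Psme2, and Psmc3ip encodes a recombination protein that is no proteasome subunit and shares only the naming scheme. Counts of 45 genes were high enough to be tested, and Psmb11 had a count of 0 in all libraries. With 139722631 estimated counts in all, that 0 allows a level of up to 0.0215 CPM (read counts scaled to a common library size), a limit that covers counting error only.

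RefSeq promoters (GRCm38.p6, from 250 bases before to 50 after the start) were matched for 39 of the 46 genes. Those of 4 genes are printed because the results turn on their genes: Psmb8 and Psmb9 among the immunosubunits, Psme1 as the activator subunit whose call turned on 1 library, and Psmc6 as the standard subunit with the largest fold change. Capitals mark matches to 5 motifs searched on both strands: CCAAT (the NF-Y box), TGACNNNGC (the core of the antioxidant response element), CCGGAAG (an ETS-type site), GAAANNGAAA (an interferon response type site) and TTCNNNGAA (a STAT-type site, the same on both strands).
Psmb8, chr17:34197945-34198244, plus strand: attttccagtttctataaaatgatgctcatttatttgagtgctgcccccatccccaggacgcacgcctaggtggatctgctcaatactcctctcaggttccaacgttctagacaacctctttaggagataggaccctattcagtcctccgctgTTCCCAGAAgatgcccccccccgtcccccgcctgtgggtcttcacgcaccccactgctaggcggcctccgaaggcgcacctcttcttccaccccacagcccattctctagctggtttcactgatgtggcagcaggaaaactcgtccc
Psmb9, chr17:34187281-34187580, minus strand: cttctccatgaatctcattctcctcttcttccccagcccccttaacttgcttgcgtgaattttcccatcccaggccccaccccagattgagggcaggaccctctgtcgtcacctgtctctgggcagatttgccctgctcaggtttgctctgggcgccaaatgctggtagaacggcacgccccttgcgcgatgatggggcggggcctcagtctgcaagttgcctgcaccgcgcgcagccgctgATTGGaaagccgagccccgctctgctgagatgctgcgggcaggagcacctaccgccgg
Psme1, chr14:55578244-55578543, plus strand: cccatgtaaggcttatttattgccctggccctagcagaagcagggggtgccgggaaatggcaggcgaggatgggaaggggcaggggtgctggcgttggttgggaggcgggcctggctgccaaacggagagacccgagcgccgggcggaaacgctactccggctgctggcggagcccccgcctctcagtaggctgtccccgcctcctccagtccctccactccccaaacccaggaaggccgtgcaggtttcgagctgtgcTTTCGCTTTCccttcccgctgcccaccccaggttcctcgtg
Psmc6, chr14:45329574-45329873, plus strand: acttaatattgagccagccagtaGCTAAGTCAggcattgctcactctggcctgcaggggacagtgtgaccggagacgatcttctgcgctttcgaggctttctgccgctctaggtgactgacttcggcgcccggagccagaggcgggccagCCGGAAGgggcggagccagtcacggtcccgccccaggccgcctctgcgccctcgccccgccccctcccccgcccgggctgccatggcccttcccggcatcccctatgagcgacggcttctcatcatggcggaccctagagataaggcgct
The Psmb8 window held TTCNNNGAA with its first base at -97 from the start, and the Psmb9 window held CCAAT on the opposite strand at -8. Psmb9 and Tap1, the peptide transporter gene, are read in opposite directions from start sites 226 bases apart, so their windows shared 275 of 300 bases. The Psme1 window held GAAANNGAAA on the opposite strand at 9 bases after the start, and the Psmc6 window held CCGGAAG at -100 and TGACNNNGC on the opposite strand at -227. RefSeq and GENCODE place the starts of Psmb8, Psmb9 and Psme1 474, 434 and 371 bases apart, so a window on the other start would hold other letters.

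Over the family, CCGGAAG was in 13 of 39 promoters (33.3%), against 18.7% of the promoters of tested genes and 9.93% of all. CCAAT was in 15 (38.5%, against 42.4% of tested genes and 41.1% of all), and TGACNNNGC in 6 (15.4%, against 17.0% and 14%). GAAANNGAAA was in 4 (10.3%, against 3.90% and 3.99%): Psmb3, Psmd4, Psmd9 and Psme1. TTCNNNGAA was in 2 (5.13%, against 8.23% and 9.55%): Psmb8 and Psmd2. These are matches of letters in a window and show neither binding nor use.

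The libraries held 19747265 to 27549838 estimated counts, of which the 46 genes took 0.277% to 0.343%. The 13 genes of the mitochondrial genome took 25.7% to 30.5%. Across tested genes, log2 levels of TAC replicate 1 correlated with the sham libraries at 0.971 to 0.975 and with the other TAC libraries at 0.957 to 0.961. TAC replicates 2 and 3 correlated with the sham libraries at 0.933 to 0.941. Genes are not independent replicates, and these values only place the libraries: TAC replicate 1 lay nearer to sham than to the other TAC libraries. Cardiomyocyte markers were abundant in every library, as the label heart requires, with summed levels of 66010.5 to 68349 CPM in sham and of 65905, 55407 and 43554 CPM in TAC replicates 1 to 3.

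Between TAC and sham, no proteasome gene passed the test. With edgeR's quasi-likelihood test and Benjamini-Hochberg adjustment over 13708 genes, 0 of 45 were higher and 0 lower at an adjusted p of 0.05, against 153 (1.12%) and 74 (0.54%) of all genes tested. At an adjusted p under 0.10, 2 were higher (Psmb8 and Psme2b) and 0 lower, against 8.25% and 3.49% of all genes. At an unadjusted p of 0.05, 4 were higher (Psmb8, Psmc6, Psmd12 and Psme2b) and 0 lower, against 16.3% and 9.26% of all genes. DESeq2 called 2 higher, Psmb8 and Psme2b, and 0 lower, where it called 7.28% and 4.08% of the genes it tested. limma-voom called 0 in either direction, where it called 0.7% and 0.547% of all genes. By none of these counts was the family's share above that of all genes. The 6 libraries of 5 genes did not overlap, all higher in TAC (Psmb8, Psmc6, Psmd12, Psmd14 and Psme2b), and 0 genes lay without overlap lower, where 18.4% and 13.1% of all genes did so. Of the 45 log2 fold changes 28 were positive, with a median of 0.05 against 0.03 over all genes. Without TAC replicate 3 that median was -0.04, with 18 of 45 positive.

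These counts rested in part on TAC replicate 1. Without it, Psmc6 rose (log2 fold change 0.56 ± 0.15 SE, adjusted p = 0.0407) and Psme2b rose (2.13 ± 0.47, adjusted p = 0.0232), while Psme1 fell (-0.50 ± 0.10, adjusted p = 0.0174) and Psmf1 fell (-0.43 ± 0.12, adjusted p = 0.0458). The same fit called 13.2% of all genes higher and 10% lower. Leaving out any other library called 0 proteasome genes, where 0.0287% to 0.59% of all genes were higher and 0.0573% to 0.374% lower.

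**Figure D1:**
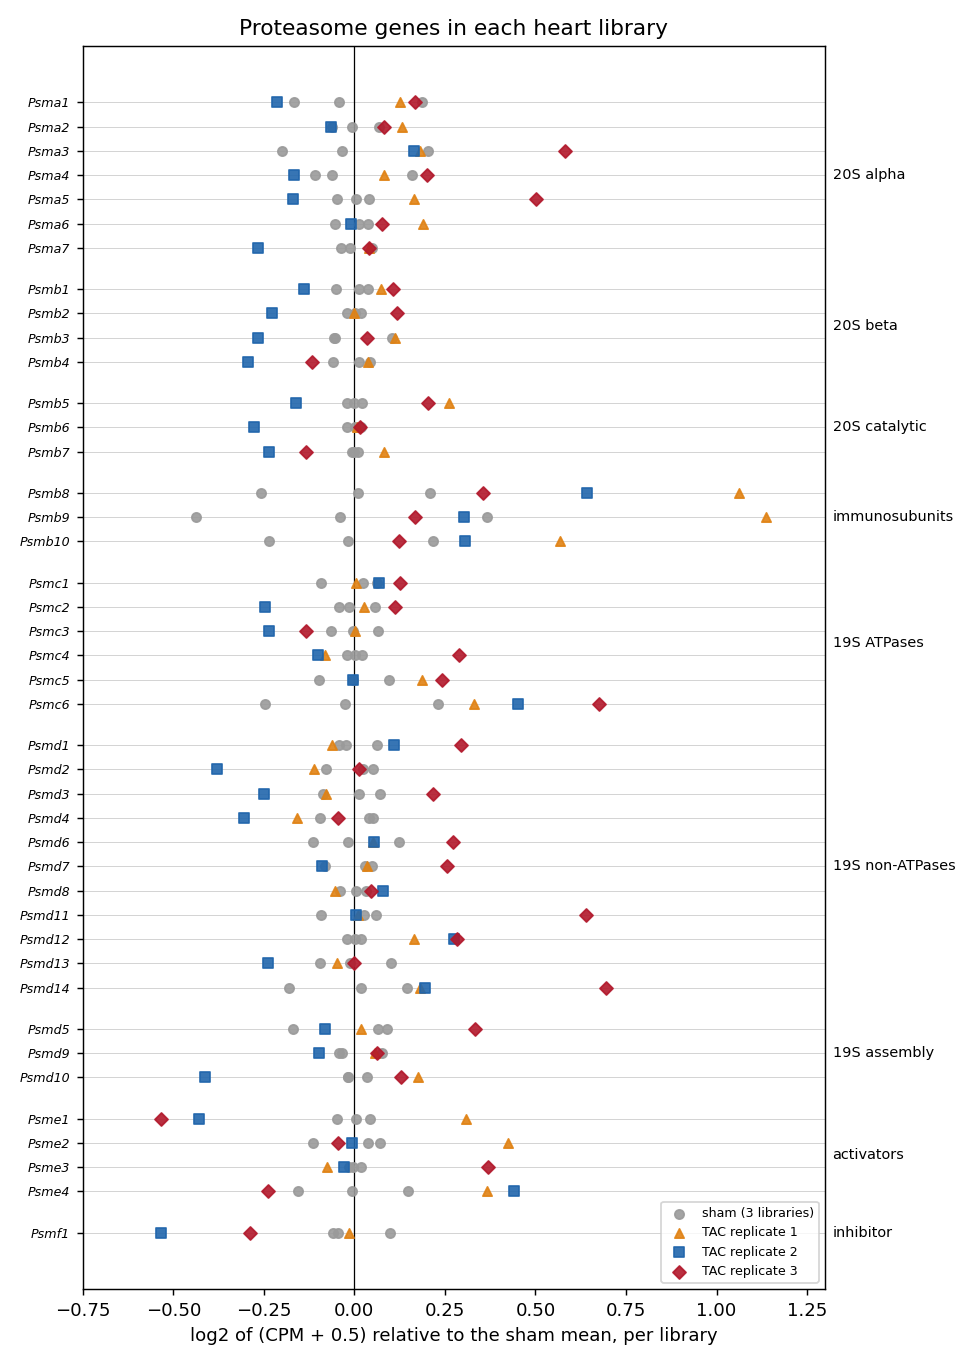
The 42 proteasome genes outside the group of others, by role (rows), with the log2 of CPM plus 0.5 in each library relative to the sham mean (x axis); grey circles are the 3 sham libraries, and the triangle, square and diamond are TAC replicates 1, 2 and 3. TAC replicate 2 lies leftmost for most 20S subunits, TAC replicate 3 rightmost for most 19S subunits and TAC replicate 1 rightmost for all 3 immunosubunits.

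The 31 standard subunits were expressed at mean levels of 24.1 to 107 FPKM (fragments scaled by transcript length and library total, which allows genes to be compared). Their log2 fold changes ran from -0.17 to 0.50, with 19 positive and 12 negative and a median of 0.05, against -0.05 and 12 positive without TAC replicate 3. The median size of these fold changes, 0.0896 on the log2 scale, stood beside 0.208 for the 4558 tested genes that averaged 30 CPM or more. Their summed level was 2542, 2536 and 2489 CPM in sham and 2596, 2316 and 2792 CPM in TAC. The sham libraries thus lay close together, and TAC held both the lowest and the highest library. The median coefficient of variation of a standard subunit was 4.55% between sham and 12% between TAC libraries, against 9.20% and 18.0% over all tested genes. This last set was not limited to genes of 30 CPM or more, so it is not matched to the subunits in level.

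The spread in TAC ran differently in the core and in the cap. All 14 standard 20S subunits were lowest of the 3 TAC libraries in replicate 2, as were 10 of 17 cap subunits and 29.7% of all tested genes. In the cap, 15 of 17 subunits were highest of the 3 TAC libraries in replicate 3, as were 35.0% of all tested genes, while 7 of 14 core subunits were. The median core subunit stood at 0.10, -0.19 and 0.09 on the log2 scale relative to the sham mean in TAC replicates 1 to 3, and the median cap subunit at 0.01, -0.0041 and 0.24. Cap and core were counted apart after these values had been seen, and the difference was not tested.

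Among alpha subunits, which form the outer rings and the gate of the core, 6 of 7 fold changes were positive, and 3 of 7 without TAC replicate 3. Psma6 had the highest mean level, 92.6 FPKM, at 94.4, 96.1 and 90.2 CPM in sham and 107, 93.0 and 98.7 CPM in TAC, with a log2 fold change of 0.09 (SE 0.11). Psma3 had the largest fold change of the rings, at 57.9, 49.1 and 43.7 CPM in sham and 57.0, 56.3 and 75.4 CPM in TAC (log2 0.33, SE 0.16, adjusted p = 0.239). TAC replicates 1 and 2 lay under the highest sham library, and without TAC replicate 3 the log2 fold change was 0.16. Psma7 had the smallest, -0.06 (SE 0.12), with 78.8, 83.7 and 80.2 CPM in sham and 83.2, 67.2 and 83.1 CPM in TAC.

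The non-catalytic beta subunits Psmb1 to Psmb4 form the inner rings with the catalytic ones. Psmb3 had the highest level of the core at 103 FPKM, and its libraries overlapped at 85.9, 76.8 and 76.7 CPM in sham and 86.4, 66.3 and 81.7 CPM in TAC. Psmb4 stood at 124, 127 and 118 CPM in sham and 126, 100.1 and 113 CPM in TAC, with the smallest fold change of the 4 (-0.12 ± 0.12 SE, adjusted p = 0.559). Psmb1 had the largest at 0.02 (SE 0.11), which was slightly negative under other scalings (-0.0073 with DESeq2 size factors). For all 4 genes the lowest of the 6 libraries was TAC replicate 2, as for 20.4% of all tested genes.

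Of the catalytic subunits, Psmb5 carries the chymotrypsin-like, Psmb6 the caspase-like and Psmb7 the trypsin-like site. Psmb5 (ENSMUSG00000022193, GRCm38 chr14:54614119-54618022) was at 58.0, 59.6 and 58.8 CPM in sham and 70.6, 52.5 and 67.7 CPM in TAC (a difference of 0.11 ± 0.13 SE in log2, adjusted p = 0.613). Psmb6 was at 77.9, 78.9 and 76.8 CPM in sham and 78.3, 64.2 and 78.7 CPM in TAC (-0.08, SE 0.12, adjusted p = 0.695). Psmb7 was at 103, 103 and 104 CPM in sham and 109.6, 87.8 and 94.3 CPM in TAC (-0.09, SE 0.12, adjusted p = 0.651). The sham libraries of each gene lay close together. TAC replicate 2 lay under them for all 3 genes, and TAC replicate 1 lay above them for Psmb5 and Psmb7 and among them for Psmb6. Estimated counts of Psmb7 were fractional in all 6 libraries, so some of its reads were divided with another gene.

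The immunosubunits had larger fold changes than the subunits they replace, all positive, and none passed the test. Psmb8 (ENSMUSG00000024338, chr17:34197721-34201454, in the MHC region), which takes the place of Psmb5, was at 18.8, 13.5 and 16.3 CPM in sham and 34.4, 25.6 and 20.9 CPM in TAC. The groups did not overlap, with TAC replicate 1 highest and replicate 3 nearest to sham. The means were 16.2 ± 2.67 and 27.0 ± 6.88 CPM (SD, n = 3). The difference was 0.74 ± 0.21 SE on the log2 scale, with an adjusted p of 0.0864 by edgeR and of 0.0270 by DESeq2. Psmb8 is thus called by DESeq2 and not by edgeR.

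Psmb9 (ENSMUSG00000096727, chr17:34181987-34187764), in the same region and the counterpart of Psmb6, was at 6.67, 4.94 and 9.0 CPM in sham and 15.7, 8.60 and 7.78 CPM in TAC. TAC replicate 1 stood above all others, and TAC replicates 2 and 3 lay under the highest sham library. The means were 6.87 ± 2.04 and 10.7 ± 4.36 CPM (SD, n = 3), which differed by 0.64 ± 0.32 SE on the log2 scale (edgeR adjusted p = 0.243). Psmb10 (ENSMUSG00000031897, chr8:105935735-105938444), the counterpart of Psmb7, was at 29.4, 21.3 and 24.9 CPM in sham and 37.5, 31.2 and 27.5 CPM in TAC. Again TAC replicate 1 was highest and TAC replicate 3 lay under the highest sham library, and the difference was 0.35 ± 0.17 SE on the log2 scale (edgeR adjusted p = 0.228). All 3 immunosubunits were lowest in sham replicate 2 and highest in TAC replicate 1, as were 11.9% and 13.2% of all tested genes, each counted alone. All 3 fold changes stayed positive in the 15 alternative fits.

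Set against its counterpart within each library, a ratio that library scaling cannot move, Psmb8 made up 22.4, 16.9 and 18.7% of the FPKM of the pair with Psmb5 in sham and 29.1, 30.1 and 21.0% in TAC. The means were 19.3 ± 2.79% and 26.7 ± 5.0% (SD, n = 3), and TAC replicate 3 lay within the sham range. Psmb9 made up 4.95, 3.70 and 6.47% of its pair with Psmb6 in sham and 10.9, 7.52 and 5.51% in TAC, with means of 5.04 ± 1.39% and 7.97 ± 2.71%. Again TAC replicate 3 lay within the sham range. Psmb10 made up 20.1, 15.5 and 17.5% of its pair with Psmb7 in sham and 23.3, 23.9 and 20.5% in TAC, with means of 17.7 ± 2.31% and 22.6 ± 1.82%. Of the 3 pairs, only Psmb10 with Psmb7 had no overlap, and its lowest TAC library was 20.5% against a highest sham library of 20.1%.

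The difference of the mean log2 ratio of CPM, TAC minus sham, was 0.61 for Psmb8 to Psmb5, 0.69 for Psmb9 to Psmb6 and 0.45 for Psmb10 to Psmb7. Exact two-sided permutation tests over the 6 libraries gave p = 0.2, 0.2 and 0.1, each 0.2 after Benjamini-Hochberg adjustment over the 3 pairs. With 3 libraries a group the smallest p this test can give is 0.1, so the design could not reach 0.05. The ratios are of transcript levels in whole tissue and do not measure assembled particles. In such bulk samples, more cells of a type and more RNA per cell cannot be told apart.

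**Figure D2:**
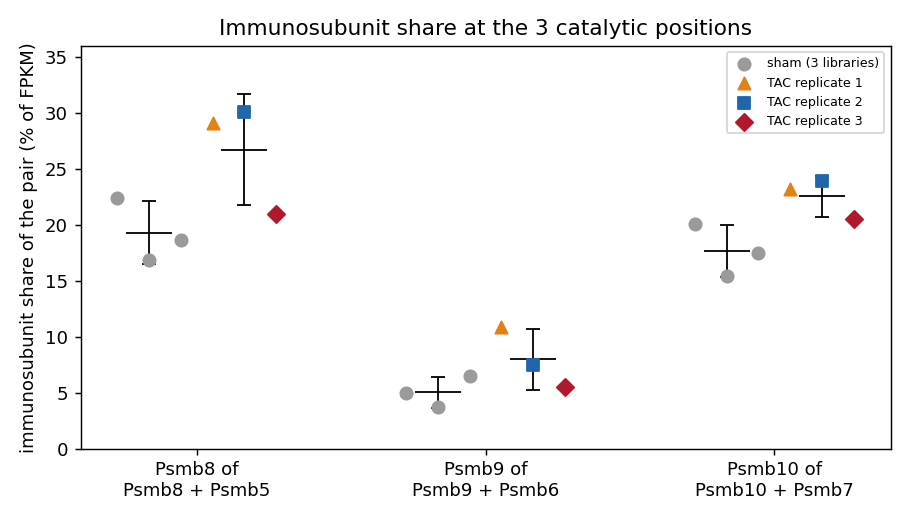
Share of each immunosubunit in the summed FPKM (%) of the pair it forms with its standard counterpart, in each library; bars are the mean and SD of 3 sham (left) and 3 TAC (right) libraries. TAC replicate 1 or 2 is highest in each pair, and TAC replicate 3 lies inside the sham range for Psmb8 and Psmb9.

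The fold changes of leukocyte markers were positive as well, in another order of libraries. Of 25 markers 23 were tested, 5 rose and 0 fell by edgeR (1.12% and 0.54% of all genes), and none was at 0 in all libraries. Their summed level was 666 to 758 CPM in sham and 919.8, 1433 and 1361 CPM in TAC replicates 1 to 3. Of the 23, 13 were highest of all libraries in TAC replicate 2, 10 in TAC replicate 3 and 0 in TAC replicate 1, the library in which the immunosubunits were highest. Of all tested genes, 21.6% were highest in TAC replicate 2, 26.8% in TAC replicate 3 and 13.2% in TAC replicate 1. Ptprc, the pan-leukocyte antigen CD45, was at 6.83, 5.04 and 4.66 CPM in sham and 11.3, 31.7 and 22.6 CPM in TAC (1.99, edgeR adjusted p = 0.0410), and was named after its values had been seen. The part of leukocytes in the immunosubunit values was not tested.

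Genes of the class I pathway that the immunoproteasome supplies stood in nearly the order of the immunosubunits. Of 7 such genes 0 passed the edgeR test, 5 were highest in TAC replicate 1 (13.2% of all tested genes were), and the median log2 fold change was 0.41. B2m, the class I light chain, was at 285, 229 and 283 CPM in sham and 521, 479 and 336 CPM in TAC (log2 0.75, SE 0.19, adjusted p = 0.0745). H2-D1, a class I heavy chain, was at 292, 284 and 356 CPM in sham and 552, 503 and 404 CPM in TAC (0.65, SE 0.17, adjusted p = 0.0753). The groups of both genes were apart, with TAC replicate 1 highest and replicate 3 nearest to sham, as for Psmb8. DESeq2 called B2m (adjusted p = 0.0054), H2-D1 (0.0061) and H2-K1 (2.1e-04) higher, where it called 7.28% of the genes it tested. H2-K1 was also called higher by edgeR without TAC replicate 1 (0.79, adjusted p = 0.0281) and, with B2m, without TAC replicate 3 (1.05, adjusted p = 0.0301). These fits called 13.2% and 0.59% of all genes higher. Tap1, which faces Psmb9 across the shared promoter, was at 16.2, 16.0 and 19.8 CPM in sham and 31.8, 19.1 and 18.2 CPM in TAC (0.41, adjusted p = 0.285). As for Psmb9, TAC replicate 1 stood alone and the other TAC libraries lay among sham. Tap1 was singled out after its values had been seen, for its promoter.

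Genes that carry the interferon gamma signal to the immunosubunits showed no such shift as a list. Of 12 genes 10 were tested, 0 passed, and the median log2 fold change was -0.01. Ifng, the cytokine itself, was at 0 CPM in the 3 sham libraries and at 0.122, 0.0434 and 0.213 CPM in TAC, too low to be tested. Ifngr2, a receptor chain, was at 188, 162 and 174 CPM in sham and 169, 87.5 and 116 CPM in TAC (-0.49, SE 0.22, adjusted p = 0.209). It was lowest in TAC replicates 2 and 3 and, without TAC replicate 1, fell by 0.80 on the log2 scale (edgeR adjusted p = 0.0132). In that fit Jak2 (0.76, adjusted p = 0.0183) and Irf8 (0.59, adjusted p = 0.0326) of the same list rose. That fit called 13.2% of all genes higher and 10% lower. Jak2 and Irf8 are named here for these calls. Ifngr1, the ligand-binding chain, was at 76.9, 75.8 and 73.1 CPM in sham and 76.1, 75 and 69.7 CPM in TAC, with overlap.

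**Figure D3:**
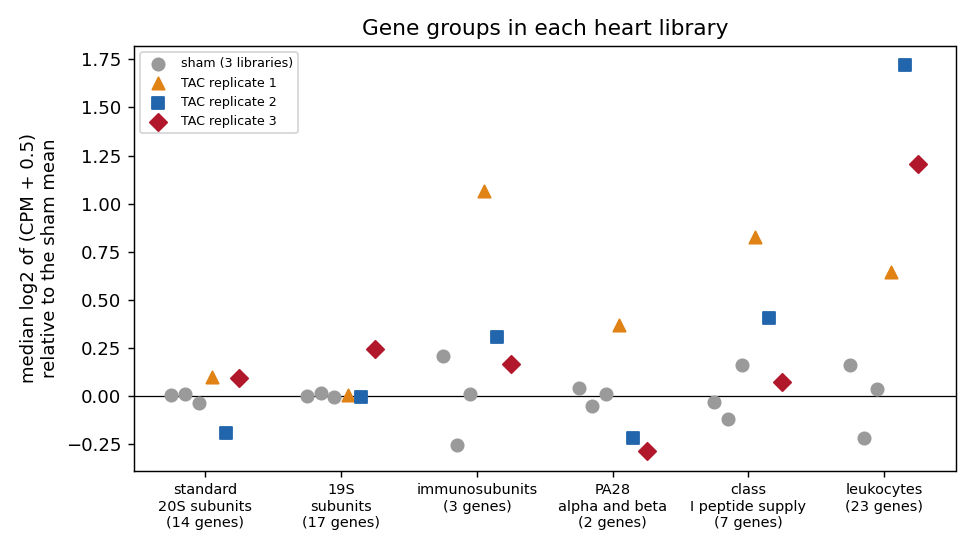
Median log2 of CPM plus 0.5 relative to the sham mean (y axis) over the genes of 6 groups (x axis), 1 point per library; grey circles are sham, and the triangle, square and diamond are TAC replicates 1, 2 and 3. TAC replicate 1 is highest for the immunosubunits (1.06), PA28 alpha and beta (0.37) and class I supply (0.83), and lowest of the TAC libraries for the leukocyte markers (0.64, against 1.72 and 1.21). It is also highest, narrowly, for the standard 20S subunits (0.098, against 0.094 in TAC replicate 3).

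The activators open the gate of the core without ubiquitin. Psme1 and Psme2, neighbours on chromosome 14, encode PA28 alpha and beta, an interferon-inducible ring, Psme3 encodes the nuclear PA28 gamma and Psme4 encodes PA200. Psme1 (chr14:55578123-55581529) was at 104, 101 and 97.6 CPM in sham and 125, 75 and 69.7 CPM in TAC, with means of 101 ± 3.24 and 89.9 ± 30.6 CPM (SD, n = 3). TAC replicate 1 lay above all sham libraries and TAC replicates 2 and 3 under them. The fold change was -0.17 ± 0.21 SE on the log2 scale (edgeR adjusted p = 0.643), against the -0.50 given above without TAC replicate 1. Psme2 (chr14:55587441-55591113) was at 36.6, 32.9 and 37.5 CPM in sham and 48.1, 35.5 and 34.6 CPM in TAC (0.14, SE 0.15, adjusted p = 0.576). TAC replicate 1 alone lay above sham, and without it the value was -0.04.

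Psme3 was at 64.0, 63.4 and 64.9 CPM in sham and 60.8, 62.8 and 82.9 CPM in TAC (0.10, SE 0.14, adjusted p = 0.666). Only TAC replicate 3 lay above sham, and without it the log2 fold change was -0.07. Psme4 was at 161, 144 and 130.3 CPM in sham and 187, 197 and 123 CPM in TAC (0.22, SE 0.19, adjusted p = 0.495). Here TAC replicates 1 and 2 lay above and replicate 3 under all sham libraries. Each of the 4 activator genes had its own order of TAC libraries except Psme1 and Psme2, which shared it. Psmf1, which encodes the inhibitor PI31, was at 25.2, 28.2 and 25.5 CPM in sham and 26.1, 18.0 and 21.5 CPM in TAC (-0.27, SE 0.16, adjusted p = 0.310). TAC replicates 2 and 3 lay under all sham libraries, and replicate 1 lay among them.

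Psme2b (ENSMUSG00000078153, chr11:48945354-48946190, minus strand) had the largest fold change of the family at a very low level. It is annotated with 1 exon, against 11 in the Psme2 transcript compared, and its coding sequence of 717 bases matched that of Psme2 at 712 bases (99.3%), with 5 mismatches and no gap. The stretch with 3 of the 5 mismatches, bases 484 to 543 counted from 1 at the first coding base (GENCODE vM21), is shown with the mismatched bases in capitals, because it shows how little separates reads of these genes.
Psme2b: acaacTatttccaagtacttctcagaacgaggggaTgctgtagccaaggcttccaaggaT
Psme2: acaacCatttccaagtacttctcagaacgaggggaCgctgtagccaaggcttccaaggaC
Of all 50-base words of the 837-base Psme2b transcript, 68.7% occur in a Psme2 transcript. Estimated counts of both genes were fractional in all 6 libraries, so reads had been divided between genes.

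The estimated counts of Psme2b were 2.55, 8.52 and 6.27 in sham and 29.33, 30.58 and 23.24 in TAC, or 0.131, 0.313 and 0.290 CPM and 1.19, 1.33 and 0.988 CPM. The groups were far apart and the TAC libraries close together, unlike the immunosubunits. The log2 fold change was 2.15 (SE 0.42), and its edgeR adjusted p of 0.05003 just missed the threshold of 0.05. DESeq2 (adjusted p = 0.0108), limma on log2 of FPKM plus 1 (0.89 on that scale, adjusted p = 0.0314) and edgeR scaled by total counts (adjusted p = 0.0492) called it. These last fits called 0.513% and 1.01% of all genes higher. The call thus turned on the method, and the value rests on a division of reads that cannot be checked from the table. Psme2b lies between 40 and 50 Mb of chromosome 11. Of 49 tested genes there, edgeR called 2 higher and 3 lower, against 1.12% and 0.54% of all genes. What lies behind these calls was not tested. Summing the counts of Psme2 and Psme2b gave a TAC to sham difference of 0.18 ± 0.15 SE in log2 (adjusted p = 0.490 by edgeR), near the 0.14 of Psme2 alone. Psme2 held 713.45 to 1180.67 counts a library and Psme2b 2.55 to 30.58. The sum therefore mostly reflects Psme2 and cannot show whether Psme2b differed.

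The ATPases form the ring of the cap that unfolds the substrate. Psmc3 had the highest mean level of all members, 107 FPKM, and the smallest fold change of the ring, -0.12 (SE 0.12), at 144, 157 and 150.0 CPM in sham and 150.4, 128 and 137 CPM in TAC. Psmc6 (chr14:45329788-45349705) had the lowest mean level of the standard subunits and their largest fold change. It was at 50.8, 42.4 and 36.3 CPM in sham and 54.4, 59.2 and 69.2 CPM in TAC, with means of 43.2 ± 7.26 and 60.9 ± 7.57 CPM (SD, n = 3). The groups did not overlap, though TAC replicate 1 exceeded the highest sham library only narrowly. On the log2 scale they differed by 0.50 ± 0.16 SE (edgeR adjusted p = 0.102).

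Of the non-ATPase subunits, Psmd8, a subunit of the lid of the cap, had the highest mean level, 71.2 FPKM, and a log2 fold change of 0.02 (SE 0.10), or -0.0025 with upper-quartile scaling. Psmd14, the deubiquitinase that removes ubiquitin chains, had the largest fold change, at 39.7, 36.3 and 31.6 CPM in sham and 40.8, 41.2 and 58.4 CPM in TAC (0.38, SE 0.17, adjusted p = 0.204). The groups lay apart, with TAC replicates 1 and 2 just above the highest sham library and replicate 3 well above it. Psmd4, a ubiquitin receptor, had the smallest, at 74.9, 82.9 and 82.4 CPM in sham and 71.7, 64.7 and 77.5 CPM in TAC (-0.17, SE 0.11, adjusted p = 0.380). Its groups overlapped. Psmd12, named after its values were seen, had tight groups that lay apart, 61.8, 62.6 and 61.0 CPM in sham and 69.4, 74.8 and 75.4 CPM in TAC (0.24, SE 0.10, adjusted p = 0.171).

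**Figure D4:**
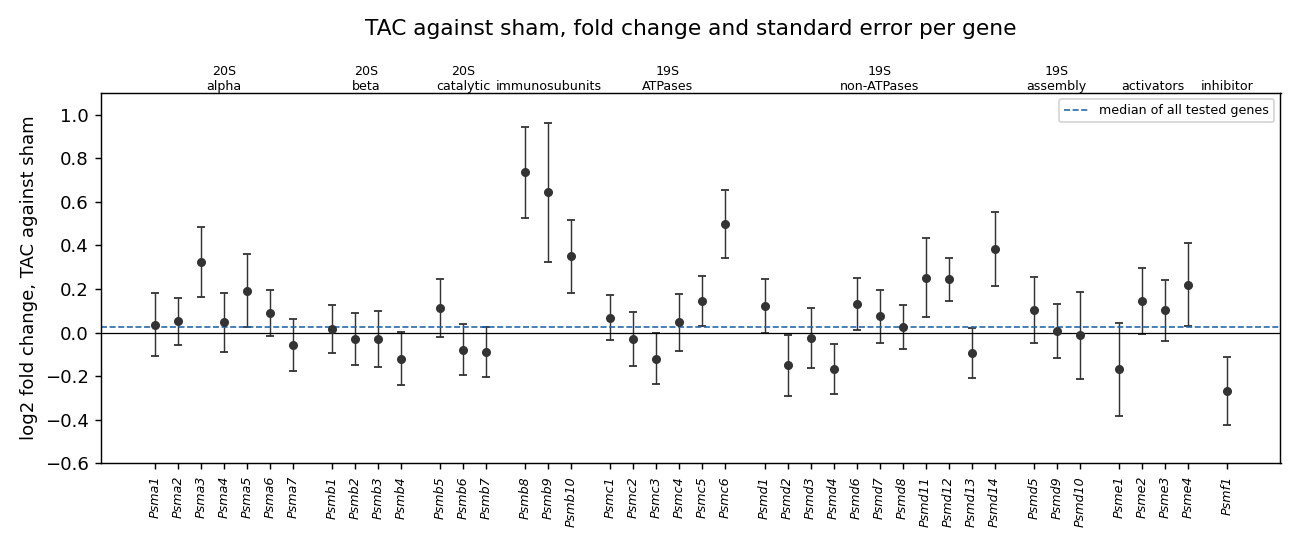
Log2 fold change of TAC against sham by edgeR (points) with its standard error (bars) for the 42 proteasome genes outside the group of others, by role; the dashed line is the median of all tested genes, 0.03. Most standard subunits lie near 0, and Psmb8 (0.74), Psmb9 (0.64) and Psmc6 (0.50) have the largest values.

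The 3 chaperones of 19S assembly were at lower levels. Psmd5 was at 7.77 FPKM, Psmd9 at 7.11 and Psmd10, also known as gankyrin, at 5.0, and their log2 fold changes were 0.10, 0.01 and -0.01, all smaller than their standard errors; that of Psmd9 was -0.02 with DESeq2 size factors. FPKM per count of Psmd5 varied 1.88-fold between libraries beyond the library totals, so the length used for it differed between libraries, while its CPM do not use a length. Among the other members, Psma8 had 6 to 21 counts a library and a log2 fold change of -0.28 (SE 0.55), and without sham replicate 1 it was 0.35. Markers of testis germ cells were at or near 0, Tnp1 at 0 in all libraries. Psmc3ip was at 2.65, 1.82 and 2.24 CPM in sham and 1.69, 1.37 and 2.44 CPM in TAC (-0.30, SE 0.32). Neither gene had groups that lay apart.

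Among genes that assemble, serve or regulate the proteasome, none passed the main test either. Of 68 in 7 lists, the class I and interferon lists included, 66 were tested, and edgeR called 0 higher and 0 lower, with 15 higher and 1 lower at an unadjusted p of 0.05 (22.7% and 1.52%, against 16.3% and 9.26% of all genes). DESeq2 called 8 higher and 1 lower of the 67 it tested (11.9% and 1.49%, against 7.28% and 4.08%), and limma-voom called 0 in either direction. The DESeq2 calls were B2m, H2-D1 and H2-K1 of the class I genes, the kinase Jak2, the ubiquitin ligase Ube3a, the E1 enzyme Uba6, the assembly factor Psmg4 and the small Maf protein Maff, all higher, and the transcription factor Foxo1, lower. Without TAC replicate 1, edgeR called 7 higher and 3 lower, where it called 13.2% and 10% of all genes.

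By list, the median log2 fold change was 0.15 for 6 assembly factors, 0.12 for 11 bound proteins, 0.0036 for 11 shuttles and unfoldase genes, 0.07 for 8 ubiquitin and E1 genes and 0.10 for 13 transcriptional regulators. Pomp, the chaperone of core assembly, was at 51.0, 51.6 and 48.8 CPM in sham and 66.4, 52.7 and 57.5 CPM in TAC (0.22, SE 0.12, adjusted p = 0.277), and its groups lay apart. Akirin2, which brings the proteasome into the nucleus, had a log2 fold change of 0.07 (SE 0.11). Of bound proteins, the thioredoxin-like Txnl1 was at 61.5, 59.7 and 60.3 CPM in sham and 64.3, 63.3 and 89.7 CPM in TAC (0.26, adjusted p = 0.310), without overlap and with replicate 3 far above the others. The ubiquitin receptor Adrm1 had 0.12 (SE 0.17).

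Vcp, the unfoldase p97, had a log2 fold change of -0.09 (SE 0.13), and the shuttle Rad23b had 0.22 (SE 0.18). The polyubiquitin gene Ubb had -0.27 (SE 0.18). Nfe2l1, the factor that raises proteasome genes when the proteasome is impaired, was at 459, 511 and 523 CPM in sham and 464, 417 and 377 CPM in TAC (-0.25, SE 0.14, adjusted p = 0.295). TAC replicate 1 lay within the sham range and TAC replicates 2 and 3 under it. Stat3 was at 195, 182 and 171 CPM in sham and 175, 208 and 288 CPM in TAC (0.29, SE 0.19, adjusted p = 0.358), with overlap.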

How the data were processed

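Estimated counts (expected counts that need not be whole) and FPKM per gene and library were deposited by the authors in 1 table, per the file headers. The tools named are StringTie 1.3.1, HISAT2, DESeq2 and Bowtie2 2.2.8, with the build GRCm38, per the submitters' processing notes. No source used here gives their roles, the annotation or the use of strand. Exactly whole values made up 88.7% to 89.7% of the counts above 0, so some reads were divided between genes. Identifiers were matched to GENCODE vM21 symbols for 22255 of 22298 genes.

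Rounded counts went into edgeR's quasi-likelihood test (version 4.0.16, R 4.3.3) after a filterByExpr filter at 10 counts and TMM scaling (two-sided, Benjamini-Hochberg over 13708 genes, threshold 0.05), without covariates. CPM use the TMM-scaled library sizes, and a standard error is the log2 fold change divided by the square root of F, an approximation. The biological coefficient of variation was 21.7%. Depth was 19747265 to 27549838 estimated counts per library. The fit was tested on simulated data with less spread between libraries than these data have, so that check does not cover their spread. Alternatives were DESeq2 1.42.0, limma-voom and limma on log2 of FPKM plus 1 (limma 3.58.1), other scalings and filters, a replicate block and leaving out each library.

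The members, their roles and the gene lists were chosen with earlier results of these data known. Members named were the catalytic subunits, immunosubunits, activators, inhibitor and atypical members, and in each other role the highest level, the largest and the smallest fold change. Psmd9 and Psmd12 were described in addition. Of each list of other genes the 2 with the highest mean FPKM were named, since none passed. Some genes are not reported here. Paaf1, planned for the assembly factors, was not analysed here.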

Additional observations from a re-analysis of the deposited data

How the results depend on the processing

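All genes called higher and lower numbered 153 and 74 by edgeR, 1063 and 595 by DESeq2 and 1131 and 479 at an adjusted p under 0.10. Higher calls numbered 96 by limma-voom and 59 by limma on FPKM. Leaving out 1 library gave 4 to 1837 higher and 8 to 1392 lower, both highest without TAC replicate 1. Proteasome genes called higher numbered 2 by DESeq2, 1 on FPKM, 2 at an adjusted p under 0.10, 1 with total-count scaling and 0 to 2 without 1 library, and those called lower 0 to 2. Of the associated genes, DESeq2 called 8 higher and 1 lower among the 67 it tested. An adjusted p under 0.10 by edgeR gave the same numbers among 66 tested. Total-count scaling called 1 higher, and leaving out 1 library gave 0 to 7 higher and 0 to 3 lower. The cause of these shifts was not tested. Total-count scaling and the summed Psme2 and Psme2b were chosen after seeing the data. Of 405 alternative fold changes of 27 named members, 376 kept their sign and side of the threshold, 8 moved past it, and 21 changed sign without passing. Those 21 were of Psma7, Psma8, Psmb1, Psmb3, Psmd5, Psmd8, Psmd10, Psme2 and Psme3, among them Psma8 without sham replicate 1 (0.35), Psmd10 without TAC replicate 2 (0.13), Psme2 without TAC replicate 1 (-0.04) and Psme3 without TAC replicate 3 (-0.07). Psmd9 and Psmd12, also described above, are outside these counts. The fold change of Psmd9 kept its sign in 6 of 15 alternative fits and that of Psmd12 in 15 of 15. The log2 ratio differences stayed positive, at 0.48 to 0.83 (Psmb8), 0.43 to 0.94 (Psmb9) and 0.33 to 0.56 (Psmb10) without 1 library. Deviations of same-numbered libraries correlated at 0.01, -0.11 and -0.02, and those of other combinations at -0.06 to 0.11. No pairing by number was visible, which does not exclude one. With a replicate block 48 genes were higher and 26 lower, and 0 proteasome genes in either direction. The block gave exact sign-flip permutation p of 0.25, 0.5 and 0.25 for the 3 ratios, where 0.25 is the smallest possible. The low depth of Psme2b and Psma8 limits their values.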
